A study of Mus musculus with 10 samples.

Results

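The 5 Epi lines are single-cell clones of mouse non-neuroendocrine small cell lung cancer, and the question addressed here is how much they differ from one another. They were chosen as the 5 arrays labelled Epi1 to Epi5 out of 10 in the series. The other 5 arrays are Mes lines of the same kind, which are used only as a background for spread. All lines of both groups carry the genotype label RbL/L, Trp53L/L, which names floxed alleles of 2 tumour suppressor genes, and all were grown in RPMI1640 with 10% FBS without treatment. The labels spell out neither Epi nor Mes and do not say whether the clones came from separate tumours or mice. Each line was hybridised once, so its 1 array holds clone, culture and array effects together, and no test of one line against another is possible.

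Small cell lung cancer usually shows a neuroendocrine program, with synaptic vesicle proteins and peptide hormones, but tumours also hold cells that have lost it and resemble epithelial or mesenchymal cells. Cells of the epithelial kind are held together by E-cadherin, claudins and desmosomes and fill their cytoskeleton with keratins. Cells of the mesenchymal kind make vimentin, collagens and other matrix proteins, and such matrix programs overlap with those of bone and tendon cells. Clones grown from single cells keep apart differences that a bulk culture would average.

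Values are the authors' log2 normalized intensities, so a difference of 1 is a 2-fold difference. A probe was kept where the scanner marked it well above background on all 5 Epi arrays, which held for 23179 of 41174 probes (56.3%). The kept probes covered 12648 genes, each read by its brightest kept probe. Each Epi array had between 24869 and 26242 probes above background and 0 saturated spots. Repeated spots of 1 probe within an array had a median SD of 0.061 to 0.073. This was taken over the 147 to 157 probes per array with at least 5 spots above background. It describes the measuring error of those probes within an array, and neither that of other probes nor that between cultures. Levels of different probes are on no common scale and are not compared.

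The lines' label was checked against epithelial genes. Of 31 epithelial junction genes, 8 were kept, 7 were above background in some lines and 16 in none. Cdh1, which encodes E-cadherin, read 4.02 in Epi3, 4.26 in Epi1 and 5.51 in Epi2, and was not well above background in Epi4 and Epi5. Epcam, another epithelial adhesion gene, was not well above background in any line. Krt8, a simple epithelial keratin, passed the background call in every line except Epi5. Other epithelial genes were above background in all 5 lines. Among the 8 kept junction genes, the desmosome genes Pkp1 and Pkp2 read 11.19 to 13.39 and 11.10 to 12.22. The keratin genes Krt7, Krt18 and Krt19 were also kept. Vim, which encodes vimentin, read 15.56 to 16.62 in all 5 lines, and 22 of 25 mesenchymal genes were kept. The markers therefore go partly against an epithelial reading of the label, and the lines are called Epi only as their name. Of 25 neuroendocrine genes, 12 were above background in none of the lines. Of 17 leukocyte genes, 8 were above background in none, and the 5 kept ones had SDs of at most 0.70.

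Most genes varied little among the clones, and a small set varied by orders of magnitude. The SD over the 5 lines had a median of 0.28, with quartiles of 0.19 and 0.43. It reached at least 1 in 631 genes (4.99% of 12648), which are called variable below. With normexp background correction and an offset of 50, which compresses low signals, 244 genes reached it. At that edge, Prkd1 and Cul9 lay just inside at 1.0001, and Exoc3l4 and Nrn1 just outside at 0.99997 and 0.9996. The range from lowest to highest line was at least 2-fold in 3522 genes (27.8%) and at least 16-fold in 181. Another probe was kept for 173 of the variable genes, and its SD was also at least 1 for 130 of them (75.1%). That other probe had the same highest line for 149 of the 173 genes and the same lowest line for 153. Over all 5719 genes with another kept probe, the highest line was the same in 61.8% and the lowest in 63.1%.

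**Figure D1:**
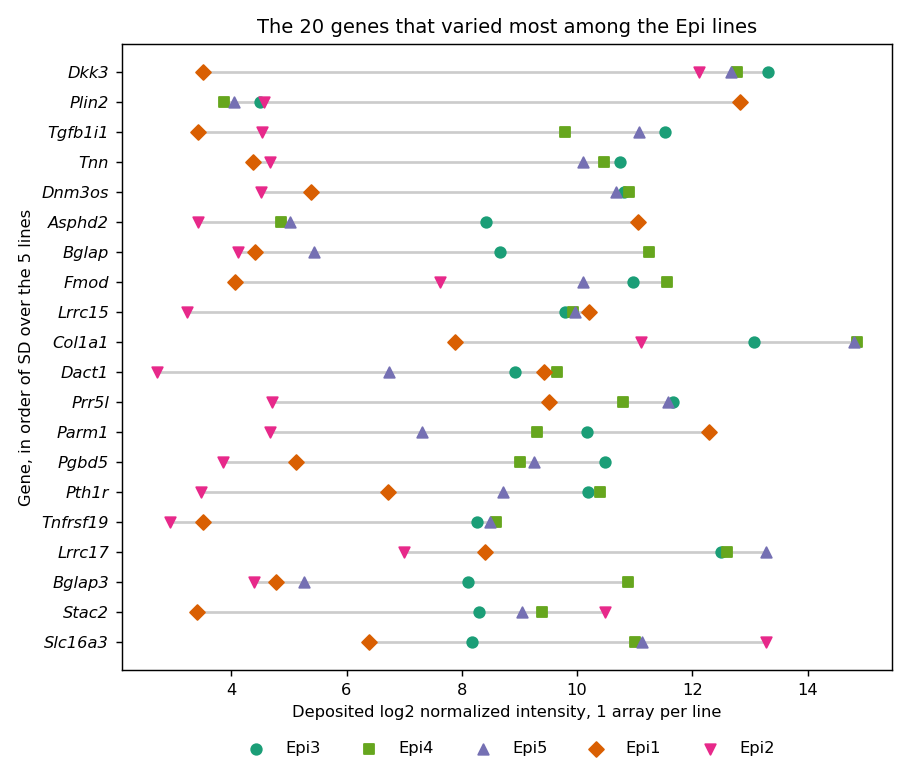
Deposited log2 normalized intensity (horizontal axis) of the 20 genes with the largest SD over the 5 Epi lines (vertical axis), 1 marker per line and 1 array per marker; grey bars span the lines. In Dkk3, Plin2 and Lrrc15 a single line lies far from the other 4, and in Tgfb1i1, Tnn, Dnm3os, Tnfrsf19 and Lrrc17 the lines Epi3, Epi4 and Epi5 lie together above Epi1 and Epi2.

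The 3 lines Epi3, Epi4 and Epi5 were closer to each other than any was to Epi1 or Epi2. The median absolute difference over the 12648 genes was 0.21 between Epi4 and Epi5, 0.23 between Epi3 and Epi5 and 0.24 between Epi3 and Epi4. In the 7 other pairs it was between 0.29 and 0.36, with Epi1 and Epi2 the farthest apart. Genes at least 2-fold apart numbered 586 to 693 within the trio and 1248 to 1549 in the other pairs. The trio was recognised from these same values, so its closeness is a description without a test. Epi3, Epi4 and Epi5 shared a slide with Epi1, while Epi2 was on a second slide with 2 Mes lines. Slide and line therefore cannot be told apart for Epi2, and Epi1 stood apart from the trio on the trio's own slide.

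**Figure D2:**
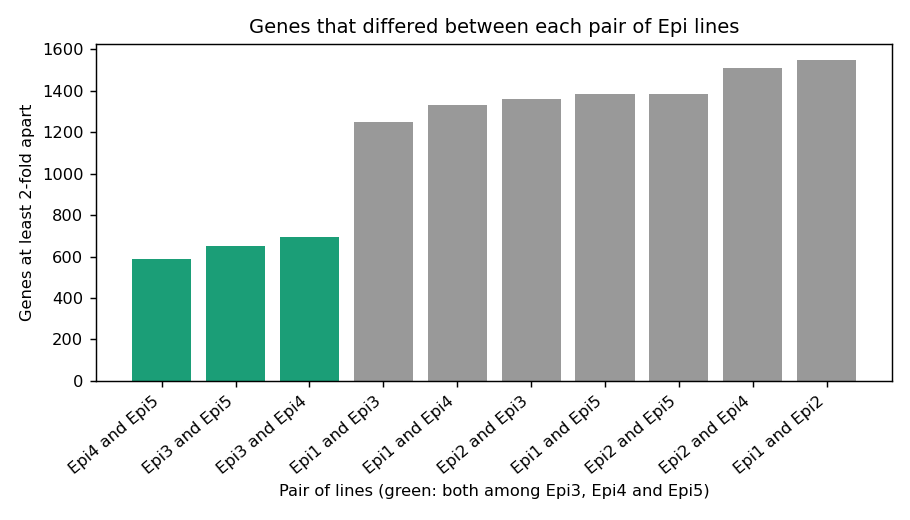
Number of kept genes at least 2-fold apart (vertical axis) for each of the 10 pairs of Epi lines (horizontal axis), with the 3 pairs within Epi3, Epi4 and Epi5 in green and the other 7 in grey. The green bars stand at 586 to 693 genes and the grey bars at 1248 to 1549.

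A single outlying line was the usual pattern. One line lay at least 2-fold from every other in 902 genes, among them 476 of the 631 variable genes (75.4%). Epi1 was at least 2-fold above all others in 174 genes (1.38%) and below all others in 190 (1.5%). Epi2 was above in 154 (1.22%) and below in 196 (1.55%). The trio's members stood alone less often. Epi3 was above in 37 genes (0.293%) and below in 65 (0.514%), Epi4 above in 62 (0.49%) and below in 51 (0.403%), and Epi5 above in 24 (0.19%) and below in 35 (0.277%). All of Epi3, Epi4 and Epi5 were at least 2-fold above both Epi1 and Epi2 in 81 genes (0.64%) and below both in 56 (0.443%). These shares are their own background, and nothing is read from them beyond the counts. Under that normexp correction the trio was above in 46 genes and below in 28. Leaving out any 1 line raised both counts. Fewer lines then had to be apart, and the filter asked for signal on the remaining arrays only, so more genes could enter. The counts were 352 and 267 without Epi1, 328 and 293 without Epi2, and 139 and 98 without Epi3. Since Epi2 sat on another slide, its genes were looked up in the Mes lines on that slide. Of the 154 genes high in Epi2, 18 (11.7%) also had Mes3 and Mes4 above the other Mes lines, against 7.49% of all genes, and of the 196 low genes 16 (8.16%) had both below, against 7.503%.

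Several genes were high in all of Epi3, Epi4 and Epi5. Tnn, which encodes tenascin-N, a matrix glycoprotein of bone and developing connective tissue, read 10.74, 10.47 and 10.11 in Epi3, Epi4 and Epi5, against 4.37 in Epi1 and 4.67 in Epi2. Dnm3os, a long noncoding RNA known to host microRNAs, read 10.81, 10.90 and 10.67 in the trio, against 5.38 in Epi1 and 4.52 in Epi2. In both genes the trio's values lay within 1 log2 unit, and the smallest difference from Epi1 and Epi2 was 43.4-fold for Tnn and 39.2-fold for Dnm3os, and 8.83-fold and 11.96-fold under normexp. A second Dnm3os probe read 8.24, 8.14 and 8.02 in the trio, against 3.52 in Epi1 and 2.86 in Epi2. Tgfb1i1, which encodes the focal adhesion protein Hic-5, read 11.53, 9.78 and 11.07 in Epi3, Epi4 and Epi5, against 3.43 in Epi1 and 4.54 in Epi2. Its 2 other probes were above background in the trio and not in Epi1 or Epi2. Tnfrsf19, a TNF receptor family member known as Troy, read 8.26, 8.60 and 8.50 in the trio, against 3.51 in Epi1 and 2.94 in Epi2. Its other probe was dimmer, with 3.35, 3.88 and 2.93 in the trio against 2.05 in Epi1 and 1.61 in Epi2, and above background on only 2 arrays. Lrrc17, a secreted leucine-rich repeat protein made by osteoblasts, read 12.49, 12.60 and 13.28 in the trio, against 8.39 in Epi1 and 7.0 in Epi2. Pgbd5, a gene derived from a transposase, was at least 14.7-fold higher in each line of the trio than in Epi1 and Epi2. Under normexp the same smallest differences were 4.63-fold for Pgbd5, 8.45-fold for Tgfb1i1, 3.79-fold for Tnfrsf19 and 14.03-fold for Lrrc17.

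The RefSeq promoter windows of the trio genes Dnm3os, Tnn and Lrrc17, of Plin2, which was high in Epi1 alone, and of Lrrc15, which was low in Epi2 alone, are shown because these genes carry the main patterns of spread. Each holds 250 bases before to 50 bases after the annotated start, 5′ to 3′ on the gene's strand in build GRCm38.p6, with TATAAA and CCAAT on either strand in capitals.
Dnm3os, chr1:162217373-162217672, plus strand: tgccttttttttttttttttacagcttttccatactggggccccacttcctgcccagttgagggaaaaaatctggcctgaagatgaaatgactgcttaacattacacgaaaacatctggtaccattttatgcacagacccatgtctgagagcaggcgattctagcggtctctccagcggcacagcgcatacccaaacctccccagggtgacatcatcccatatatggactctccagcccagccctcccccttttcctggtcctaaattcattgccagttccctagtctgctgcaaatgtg
Tnn, chr1:160153526-160153825, minus strand: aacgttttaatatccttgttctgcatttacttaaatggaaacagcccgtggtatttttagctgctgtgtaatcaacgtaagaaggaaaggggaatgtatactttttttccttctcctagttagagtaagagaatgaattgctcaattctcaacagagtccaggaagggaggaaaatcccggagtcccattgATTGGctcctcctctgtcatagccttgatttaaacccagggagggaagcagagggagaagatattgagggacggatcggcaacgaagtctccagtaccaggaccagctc
Lrrc17, chr5:21543277-21543576, plus strand: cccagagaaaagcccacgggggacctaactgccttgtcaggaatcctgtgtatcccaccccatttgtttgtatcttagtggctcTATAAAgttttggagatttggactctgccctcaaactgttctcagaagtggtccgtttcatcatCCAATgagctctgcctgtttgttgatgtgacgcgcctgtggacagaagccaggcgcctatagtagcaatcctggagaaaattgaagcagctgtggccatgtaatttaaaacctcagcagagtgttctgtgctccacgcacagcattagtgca
Plin2, chr4:86670010-86670309, minus strand: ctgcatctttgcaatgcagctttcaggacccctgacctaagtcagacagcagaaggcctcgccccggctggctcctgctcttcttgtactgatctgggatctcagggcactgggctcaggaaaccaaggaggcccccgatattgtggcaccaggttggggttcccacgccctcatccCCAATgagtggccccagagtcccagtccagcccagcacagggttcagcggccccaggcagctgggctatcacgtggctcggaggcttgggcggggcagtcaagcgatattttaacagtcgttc
Lrrc15, chr16:30283205-30283504, minus strand: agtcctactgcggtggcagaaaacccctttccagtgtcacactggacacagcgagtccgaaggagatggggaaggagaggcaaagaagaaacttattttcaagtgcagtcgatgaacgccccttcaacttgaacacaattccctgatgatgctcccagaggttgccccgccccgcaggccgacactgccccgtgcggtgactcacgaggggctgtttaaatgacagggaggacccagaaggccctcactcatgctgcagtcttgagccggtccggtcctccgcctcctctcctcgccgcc
Lrrc17 held both motifs, Tnn and Plin2 held CCAAT alone, and Dnm3os and Lrrc15 held neither. Of 32851 windows of the same length, 13.6% held TATAAA and 37.4% CCAAT. The windows had 5, 7, 6, 10 and 16 CG dinucleotides in the order shown, where the median of all windows was 7.

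The Dnm3os transcript is annotated in RefSeq across the hairpins of miR-199a and miR-214, on the same strand. Their mature sequences follow because the host transcript is among the genes that separate the trio, with the seed (bases 2 to 8) in capitals. The array did not measure the microRNAs themselves.
mmu-miR-199a-5p: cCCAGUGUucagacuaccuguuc
mmu-miR-199a-3p: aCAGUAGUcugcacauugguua
mmu-miR-214-5p: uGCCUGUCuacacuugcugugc
mmu-miR-214-3p: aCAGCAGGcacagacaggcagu
The 4 seeds differ from one another, so the 4 microRNAs form no shared seed group.

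The genes lowest in the trio had smaller gaps than those highest in it. Fxyd5, which encodes a regulator of the sodium pump that weakens cell adhesion, read 5.06, 3.70 and 4.05 in Epi3, Epi4 and Epi5, against 8.48 in Epi1 and 7.77 in Epi2. Col4a6, a basement membrane collagen chain, read 5.11, 6.33 and 3.68 in the trio, against 8.87 in Epi1 and 9.04 in Epi2. C3, the central complement component, read 4.31, 5.06 and 4.58 in the trio, against 7.75 in Epi1 and 7.45 in Epi2. The nearest lines were 6.53-fold apart for Fxyd5, 5.83-fold for Col4a6 and 5.26-fold for C3, and the trio and the other lines did not overlap in any of them on these probes. Another Col4a6 probe read 5.94, 5.66 and 5.83 in the trio, against 6.01 in Epi1 and 6.62 in Epi2, so the size of that gap depends on the probe. Tmem171, Zfpm2 and Tubb2b, the next genes in this order, had gaps of 3.82-fold to 4.15-fold. Only 4 genes had the trio at least 4-fold below both other lines, while 15 had it at least 4-fold above.

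Epi1 lay far below the other lines in some genes and far above them in others. Dkk3, a secreted member of the Dickkopf family of Wnt antagonists (probe at chr7:119260828-119260887 in mm9), had the largest SD of all genes, 4.14. It read 3.52 in Epi1, against 13.31, 12.77, 12.67 and 12.13 in Epi3, Epi4, Epi5 and Epi2. Plin2, the coat protein of lipid droplets (probe at chr4:86302676-86302735 in mm9), ran the other way, with 12.83 in Epi1 against 4.51, 3.87, 4.05 and 4.57 in Epi3, Epi4, Epi5 and Epi2. Epi1 was thus 391-fold below the nearest line for Dkk3 and 308-fold above it for Plin2, and 37.3-fold and 58.7-fold under normexp. Aga, a lysosomal enzyme that cleaves glycoproteins, read 3.81 in Epi1 and 8.83 to 9.73 in the other lines. Gulp1, an adaptor for engulfment of dying cells, read 4.55 in Epi1 and 9.19 to 10.56 elsewhere. Stac2, an adaptor of calcium channels, read 3.40 in Epi1 and 8.29 to 10.48 elsewhere. Tgfbi, a matrix protein induced by TGF-beta, read 10.26 in Epi1 and 3.72 to 5.79 in the other lines. Mapt, the microtubule protein tau, read 9.21 in Epi1 and 3.27 to 4.98 elsewhere. Id4, an inhibitor of basic helix-loop-helix factors, read 13.93 in Epi1 and 7.95 to 9.92 elsewhere. In each of these genes Epi1 lay outside the range of the other 4 lines by at least 16.2-fold on the deposited values. That minimum depends on the background correction: the gap of Stac2 was 29.6-fold on these values and 3.72-fold under normexp.

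Epi2 likewise had genes far below and far above the other lines. Lrrc15, a leucine-rich repeat membrane protein of matrix-producing fibroblasts and osteoblasts, read 3.23 in Epi2, against 9.79, 9.93, 9.96 and 10.22 in Epi3, Epi4, Epi5 and Epi1. A second Lrrc15 probe read 2.73 in Epi2, against 7.999 to 8.32 in the other lines. The 4 other lines lay within 1 log2 unit on both probes, and Epi2 was 94.3-fold below the nearest of them on the brighter one, and 8.59-fold under normexp. Prr5l, a component of the mTORC2 kinase complex, read 4.70 in Epi2 and 9.52 to 11.67 elsewhere. Adgrl1, an adhesion G protein-coupled receptor known as latrophilin, read 9.63 in Epi2 and 13.68 to 14.81 elsewhere, and its 3 other probes were also lowest in Epi2. Spats2l, which encodes a nucleolar RNA-binding protein, read 5.61 in Epi2 and 9.81 to 12.05 elsewhere. Among high genes, Ifi209, a member of the interferon-inducible p200 family, read 12.004 in Epi2 and 5.96 to 6.85 elsewhere. Nlrp2, an NLR family member, read 14.48 in Epi2 and 7.31 to 11.02 elsewhere. Mt2, a metal-binding metallothionein, read 16.41 in Epi2 and 11.10 to 13.14 elsewhere. Lman1l, a relative of a cargo receptor of the early secretory pathway, read 10.43 in Epi2 and 6.20 to 7.60 elsewhere.

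Some genes put Epi1 and Epi2 on opposite sides of the trio, with Epi1 above and Epi2 below in 16 genes and the reverse in 9. Parm1, a mucin-like membrane protein, read 10.18, 9.31 and 7.31 in Epi3, Epi4 and Epi5, against 12.29 in Epi1 and 4.67 in Epi2. F11r, the tight junction protein JAM-A, read 9.37, 9.03 and 8.67 in the trio, against 6.09 in Epi1 and 11.83 in Epi2. Smoc1, a matricellular calcium-binding protein that antagonises BMP signalling, read 7.94, 7.37 and 7.49 in the trio, against 3.69 in Epi1 and 10.17 in Epi2. For these genes Epi1 and Epi2 were farther from each other than either was from the trio.

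Within the trio the lines still differed. The range of Epi3, Epi4 and Epi5 was under 1 in 11470 genes (90.7% of 12648) but in only 163 of the 631 variable genes (25.8%). Epi3 was highest in muscle actin genes. Acta1, skeletal muscle actin, read 8.78 in Epi3, 3.32 in Epi4, and 6.50, 5.77 and 6.48 in Epi5, Epi1 and Epi2. Actc1, cardiac actin, read 11.74 in Epi3, 6.03 in Epi4, and 9.24, 8.57 and 8.64 in Epi5, Epi1 and Epi2. Epi3 and Epi4 were the 2 extremes in both, and in the smooth muscle gene Myl9 (16.04 in Epi3, 10.55 in Epi4 and 13.12 to 14.12 in the other lines). Cnn1, which encodes the actin-binding protein calponin, was likewise highest in Epi3 at 11.84 and lowest in Epi4 at 7.25. The muscle troponin genes Tnnt2 and Tnnt3 did not follow this order. They were highest in Epi1, at 10.58 and 5.37, and lowest in Epi2, at 7.99 and 3.43. Actin sequences are similar between family members, so cross-hybridisation between their probes was not tested. Epi3 was lowest in Cxcl5, a neutrophil-attracting chemokine, with 7.26 against 11.49 to 13.34 elsewhere. It was also lowest in Hspb1, the small heat shock protein HSP27, with 8.56 against 12.25 to 13.69, and in the TNF-induced gene Tnfaip2, with 3.52 against 6.80 to 8.01.

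Ch25h, which makes the immune oxysterol 25-hydroxycholesterol, read 12.54 in Epi4, against 6.64 to 9.67 in the other lines. Bglap, which encodes osteocalcin, a bone matrix protein of mature osteoblasts, read 11.26 in Epi4, 8.66 in Epi3 and 4.12 to 5.44 in the other lines. Bglap3 read 10.88 in Epi4, 8.12 in Epi3 and 4.39 to 5.26 elsewhere, but the Bglap genes are near-identical copies and their probes may not tell them apart. Tbxas1, thromboxane synthase, read 6.20 in Epi4 and 3.15 to 3.63 elsewhere. Epi4 was lowest in the axon guidance genes Crmp1 (3.80 against 8.76 to 10.21) and Sema3e (6.14 against 9.17 to 10.44), and in Epha7 (4.50 against 7.52 to 10.05), an ephrin receptor. Lims2, an adaptor of integrin adhesions, read 4.90 in Epi4 and 7.60 to 8.22 elsewhere. Epi5 had the fewest genes at least 2-fold from every other line. Chst10, which makes the HNK-1 carbohydrate, read 8.26 in Epi5 and 3.55 to 5.06 elsewhere. Enpp2, the lysophosphatidic acid enzyme autotaxin, read 11.26 in Epi5 and 7.04 to 8.74 elsewhere. Cacna1g, a voltage-gated calcium channel, read 9.27 in Epi5 and 4.88 to 6.79 elsewhere. The transcription factor Lhx9 read 4.13 in Epi5 and 6.96 to 8.83 elsewhere. Slpi, a secreted protease inhibitor of epithelia, read 8.62 in Epi5 and 11.06 to 13.91 elsewhere.

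Bone and tendon matrix genes were assembled into a list of 37 after their values were seen, so the list describes and supports nothing. Of these, 31 were kept and 20 were variable (64.5%, against 4.99% of all kept genes), and the median SD was 1.54 against 0.28. The trio was at least 2-fold above Epi1 and Epi2 in 11 of the 31 and below in 0, where the shares over all kept genes were 0.64% and 0.443%. Col1a1, the main chain of type I collagen, read 13.06, 14.87 and 14.81 in Epi3, Epi4 and Epi5, against 7.88 in Epi1 and 11.11 in Epi2. Its partner chain Col1a2 read 18.04, 18.01 and 18.06 in the trio, against 16.91 in Epi1 and 17.11 in Epi2. Fmod, a small proteoglycan that binds collagen fibrils, read 10.97, 11.57 and 10.11 in the trio, against 4.07 in Epi1 and 7.62 in Epi2. Postn, the matricellular protein periostin, read 15.48, 14.83 and 15.10 in the trio, against 12.57 in Epi1 and 11.32 in Epi2. Pth1r, the parathyroid hormone receptor, read 10.19, 10.40 and 8.72 in the trio, against 6.72 in Epi1 and 3.48 in Epi2. Ogn, another small proteoglycan, read 12.13, 12.995 and 13.24 in the trio, against 10.18 in Epi1 and 9.88 in Epi2. The trio lay above both other lines in each of these 6 genes, without overlap. Other listed genes did not show this split. Spp1, osteopontin, read 14.88, 17.19 and 16.09 in the trio, against 17.01 in Epi1 and 16.18 in Epi2. Dcn, the proteoglycan decorin, was not well above background in Epi3. It read 4.28 in Epi4 and 9.12 in Epi5, against 6.25 in Epi1 and 4.53 in Epi2.

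The transcription factors of bone formation did not vary equally. Sp7, osterix, read 7.94, 9.91 and 7.61 in the trio, against 6.38 in Epi1 and 4.87 in Epi2. Runx2, which acts upstream of Sp7 in osteoblasts, had an SD of 0.39 and read 10.62, 10.21 and 10.05 in the trio, against 10.24 in Epi1 and 9.53 in Epi2. Epi1 thus lay inside the trio's range for Runx2 and below it for Sp7. Ibsp, bone sialoprotein, was above background in Epi3, Epi4 and Epi5 at 6.55, 9.32 and 4.10, and in neither Epi1 nor Epi2. Alpl, the alkaline phosphatase of mineralising cells, followed no such split, being above background in Epi3, Epi4 and Epi1 and not in Epi5 or Epi2. Some listed genes are neighbours. Aspn, Omd and Ogn follow each other on chromosome 13 with 0 genes between them, and Prelp and Fmod on chromosome 1 have 1 gene between them in RefSeq. Neighbours did not share 1 pattern: Prelp read 11.20, 12.54 and 13.27 in the trio, against 7.17 in Epi1 and 13.62 in Epi2, which was the highest line for Prelp but not for Fmod. Aspn and Omd were lowest in Epi1, at 4.40 and 3.77, and Ogn in Epi2. The osteocyte gene Sost and the matrix gene Mepe had SDs of 0.096 and 0.13, both near the lower end of the list. Both were dim, at 4.55 to 4.79 and 4.85 to 5.14, and the other Sost probe was above background on 0 arrays. The part of dim signal in these small SDs was not tested.

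**Figure D3:**
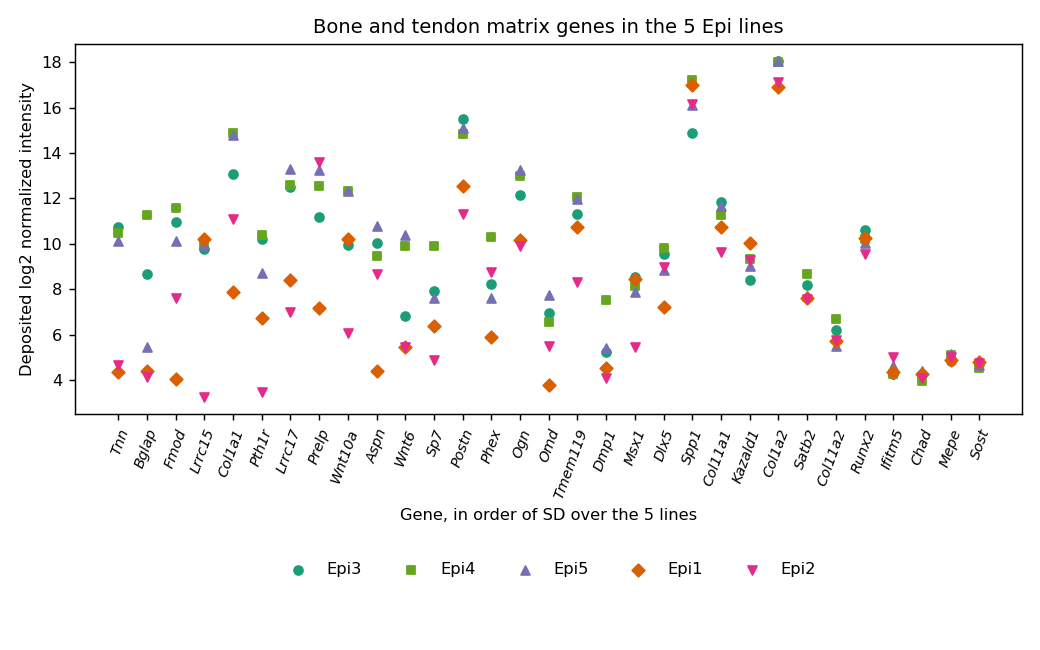
Deposited log2 normalized intensity (vertical axis) of the 31 kept bone and tendon matrix genes (horizontal axis, in order of SD over the 5 Epi lines), 1 marker per line and 1 array per marker. In 11 genes, among them Tnn, Fmod, Col1a1 and Postn, the markers of Epi3, Epi4 and Epi5 all lie at least 1 above those of Epi1 and Epi2.

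Among other matrix genes, 6 of 18 kept collagens were variable, with a median SD of 0.62, where 4.99% of all kept genes were. Epi1 was at least 2-fold below all other lines in 4 of the 18 (1.5% of all kept genes) and in 1 of 22 kept matrix glycoproteins, and Epi2 in 0 and 2 of them (1.55% of all kept genes). Col6a3, a chain of the microfibrillar collagen VI, read 9.56 in Epi1 and 13.70 to 14.99 in the other lines, and both its other probes were lowest in Epi1. Col6a2 read 9.59 in Epi1 and 11.93 to 12.80 elsewhere. Bgn, the proteoglycan biglycan, read 9.04 in Epi1 and 12.98 to 13.71 elsewhere. Of the 22 kept matrix glycoproteins 6 were variable, and of 23 kept matrix proteases and inhibitors 3 were. Timp3, an inhibitor of metalloproteases, was highest in Epi3 at 13.29, with 9.79 to 11.42 elsewhere. The protease Adamts12 was lowest in Epi2 at 3.26, with 5.94 to 7.94 elsewhere.

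Keratins and immune genes were counted in the same way, against 4.99% variable among all kept genes. Of 12 kept keratins and other intermediate filaments, 6 were variable, with a median SD of 0.77, which was 0.40 without Epi1 and 0.45 without Epi2. Krt19, a keratin of simple epithelia, read 9.49 in Epi1 and 3.73 to 5.92 in the other lines. Krt18 read 7.35 in Epi1 and 3.32 to 5.60 elsewhere, while Krt7 was lowest in Epi1 at 6.50, with 7.48 to 9.54 elsewhere. Of 15 kept cytokines and chemokines, 7 were variable, with a median SD of 0.86. Il11, an IL-6 family cytokine, ran between 6.24 in Epi5 and 12.24 in Epi1. Ccl5, a T cell attractant, read 5.91, 7.26 and 7.90 in Epi3, Epi4 and Epi5, against 9.41 in Epi1 and 9.79 in Epi2. The neutrophil attractant Cxcl1 read 7.70, 9.24 and 8.34 in the trio, against 10.25 in Epi1 and 12.58 in Epi2. H2-K1, an MHC class I heavy chain, read 9.94, 9.53 and 10.77 in the trio, against 12.29 in Epi1 and 12.52 in Epi2. The trio did not overlap with Epi1 and Epi2 in Ccl5, Cxcl1 or H2-K1. Another H2-K1 probe read 9.73, 9.05 and 9.69 in the trio, against 9.85 in Epi1 and 10.01 in Epi2, and MHC class I genes are alike enough to share probes. Of 28 kept interferon response genes 3 were variable, and of 15 kept antigen presentation genes 2 were.

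Among developmental pathways, 9 of 20 kept Wnt pathway genes were variable (4.99% of all kept genes, which also holds for the lists after it), and the trio was at least 2-fold above Epi1 and Epi2 in 4 (0.64% of all kept genes). The ligand Wnt6 read 6.82, 9.89 and 10.38 in Epi3, Epi4 and Epi5, against 5.43 in Epi1 and 5.44 in Epi2. Wnt10a, which lies near Wnt6 on chromosome 1, read 9.95, 12.31 and 12.30 in the trio, against 10.20 in Epi1 and 6.09 in Epi2, so its trio overlapped with Epi1. Dact1, an intracellular Wnt modulator, read 2.71 in Epi2 and 6.74 to 9.66 elsewhere. Of 30 kept receptor tyrosine kinases and ligands 9 were variable. Fgfr2, a fibroblast growth factor receptor, read 8.99, 9.71 and 8.51 in the trio, against 5.97 in Epi1 and 5.98 in Epi2. Areg, an EGF receptor ligand, was highest in Epi1 at 13.24, with 9.46 to 10.64 elsewhere. Of 25 kept TGF-beta and BMP genes 6 were variable. The BMP antagonist Grem1 was lowest in Epi1 at 5.93, with 9.68 to 11.54 elsewhere. Of 29 kept axon guidance genes 5 were variable, and Sema5a, a semaphorin, was lowest in Epi2 at 4.85, with 7.98 to 10.33 elsewhere. None of 10 kept Notch genes or 12 kept Hox genes was variable. Another 4 Notch genes and 1 Hox gene were above background in only some lines, so this count leaves them out.

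Lists of general cell functions were likewise counted against 4.99%. None of 34 kept ribosomal protein genes, 36 respiratory chain genes or 37 cell cycle genes was variable, with median SDs of 0.11, 0.17 and 0.39, the last above the 0.28 of all genes. Of 25 kept Myc family, Rb and p53 pathway genes 1 was variable, Sesn1, a stress-induced sestrin, with 12.39, 13.29 and 13.28 in Epi3, Epi4 and Epi5 against 11.10 in Epi1 and 10.80 in Epi2. Myc itself read 12.13 to 13.29. Of 29 kept glycolysis and hypoxia genes 3 were variable, led by Slc16a3, the lactate exporter MCT4, with 8.18, 11.01 and 11.12 in the trio, against 6.39 in Epi1 and 13.29 in Epi2. Of 20 kept unfolded protein and amino acid stress genes 1 was variable, the lipoprotein receptor Vldlr, with 6.44 in Epi3 and 8.30 to 11.26 elsewhere. Of 20 kept immediate early genes 3 were variable. Klf4 read 10.70, 9.94 and 10.43 in the trio, against 13.19 in Epi1 and 12.25 in Epi2, and Nr4a1 read 11.54, 11.97 and 11.45 in the trio, against 13.54 in Epi1 and 13.35 in Epi2. Xist, the RNA of the inactive X chromosome, read 13.15 to 14.02 in all 5 lines. The 4 Y-linked genes were above background in none. Probes for Rb1 and Trp53 read 6.94 to 7.72 and 8.90 to 9.27, which checks nothing, since the position of the deleted parts relative to the probes is not given.

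**Figure D4:**
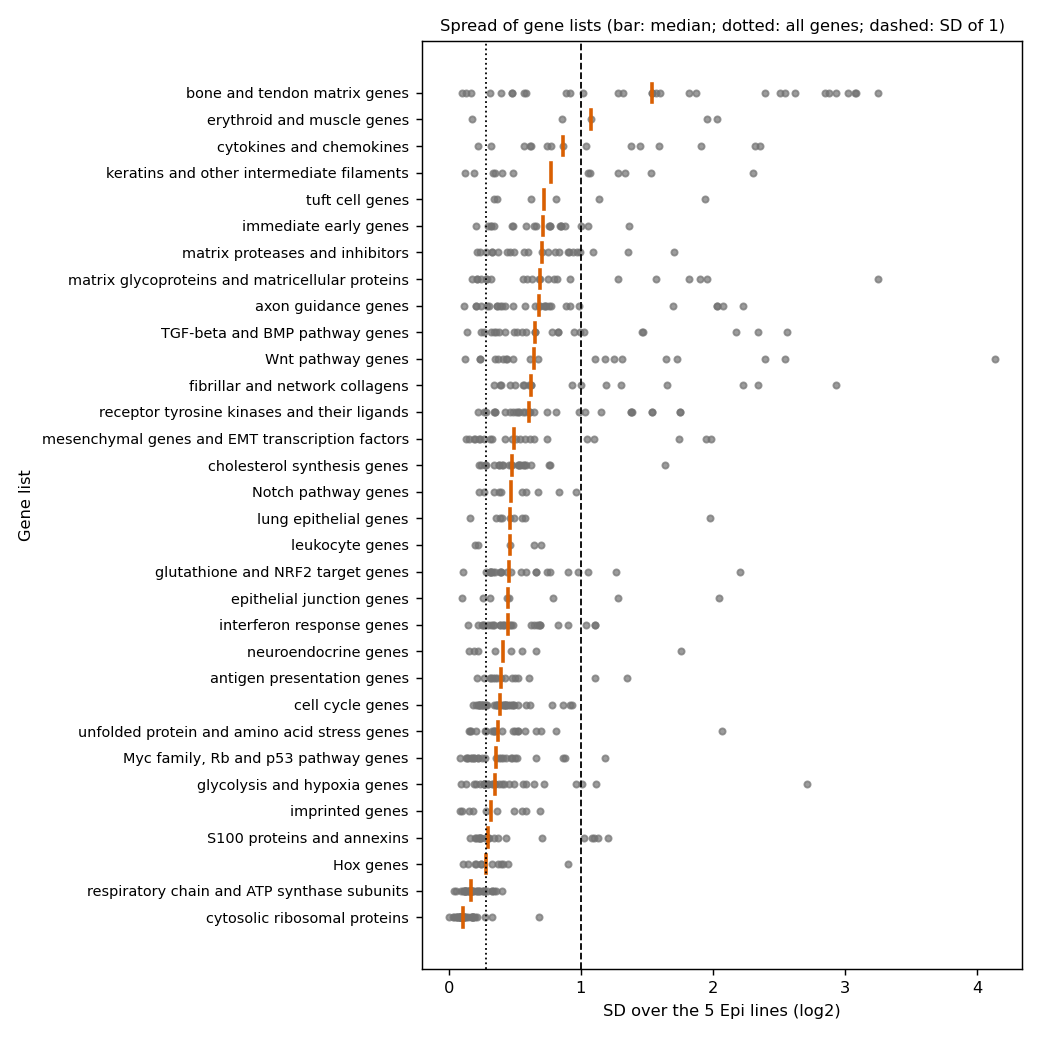
SD over the 5 Epi lines (horizontal axis, log2) of the kept members of each gene list with at least 5 kept genes (vertical axis), 1 point per gene, with the list's median as an orange bar, the median of all kept genes (0.28) as a dotted line and an SD of 1 as a dashed line. Bone and tendon matrix genes, a list made after seeing these values, lie farthest right, and respiratory chain and ribosomal protein genes farthest left.

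The array's own Gene Ontology annotation gave a like order, in terms picked for contrast. Variable genes made up 29.7% of 118 kept genes annotated to the proteinaceous extracellular matrix, 23.2% of 56 with cytokine activity and 19.5% of 307 in the extracellular space. The shares were 17.1% for growth factor activity and 17.0% for cell adhesion. Among genes of the plasma membrane the share was 10.1% of 1436. It was 3.41% of 3663 for the nucleus, 2.06% of 1213 for the mitochondrion, 1.90% of 422 for the cell cycle and 0.474% of 211 for translation, where the share over all kept genes was 4.99%. No enrichment was tested.

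Further differences lay in genes that some lines did not measurably express. Of 21211 genes named on the array, counting a gene as on in a line through any of its probes, 12652 were above background in all 5 lines, 6201 in none and 517 in 4 of 5. Of these 517, 175 were off in Epi1 alone, 81 in Epi2, 62 in Epi3, 105 in Epi4 and 94 in Epi5. Another 959 were on in 1 line alone, namely 421 in Epi2, 199 in Epi1, 161 in Epi3, 104 in Epi4 and 74 in Epi5. Epi2 also had the most probes above background of the 5 arrays, 26242, and the part of that in its count was not tested. For an off line only a bound can be given, the brightest line against the dimmest signal called above background on the off array or the probe's own signal, whichever was higher. Where several lines were off, these log2 levels were averaged over them. Such folds hold for the deposited values only and were not computed under normexp, which compresses low signals. Rbp4, the plasma carrier of retinol, was not well above background in Epi2 and was at least 584-fold higher in Epi1 (11.81), with 5.73, 6.29 and 10.24 in Epi3, Epi4 and Epi5. Igfbp5, an IGF-binding protein, was off in Epi2 and at least 466-fold higher in Epi1, with 9.50, 3.96 and 4.61 in Epi3, Epi4 and Epi5. Aplp1, a relative of the amyloid precursor protein, was off in Epi1, with 10.96, 12.09, 10.91 and 10.72 in Epi3, Epi4, Epi5 and Epi2, at least 496-fold higher in Epi4. Tmem159, now known as the lipid droplet protein promethin, was off in Epi1 and read 11.00 to 11.53 in the other lines. Serpine2, a secreted protease inhibitor, was off in Epi3 and at least 301-fold higher in Epi1, with 7.16, 3.52 and 3.91 in Epi4, Epi5 and Epi2. Ednra, an endothelin receptor, was off in Epi5 and Epi2. Its signal in Epi4 was 337-fold above the level averaged over these off lines, which is not a bound for each of them. Itga9, an integrin chain that binds tenascin, was off in Epi2 and read 9.81 to 10.59 elsewhere.

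Chromosome medians also differed between lines. For each of 20 chromosomes and 5 lines, the shift is the median over the chromosome's genes of the line's value minus the median of the 5 lines. Of these 100 shifts, 8 reached 0.2 in size, on 7 chromosomes. Epi1 fell by 0.30 on chromosome 10 and by 0.27 on chromosome 2, and was shifted by 0.33 on chromosome 18. Epi1 was the lowest line in 57.1% of 587 kept genes of chromosome 10, against 23.6% of all kept genes, and the highest in 63.1% of 320 genes of chromosome 18, against 22.99%. On chromosome 2 the shift of Epi1 was -0.38 over the first part of the genes by position, -0.30 over the middle part and -0.02 over the last, each part holding 326 or 327 genes. Epi2 was shifted by 0.34 on chromosome 4 and 0.29 on chromosome 13, and fell by 0.21 on chromosome 14 and by 0.22 on chromosome 5. On chromosomes 4 and 13 each such part showed it, between 0.30 and 0.37 on chromosome 4 and between 0.26 and 0.31 on chromosome 13. On chromosome 5 Epi4 was shifted the other way, by 0.24. Neither Epi3 nor Epi5 reached 0.2 on any chromosome. On chromosome 5 the shift of Epi2 was -0.15 without Epi4, and that of Epi4 was 0.18 without Epi2 or Epi3. Without the filter on dim probes the shifts of Epi1 on chromosome 10 and 2 were -0.070 and -0.024, and those of Epi2 on chromosome 13 and 14 were 0.092 and -0.071. Copy number was not measured, so its part in these shifts was not tested.

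**Figure D5:**
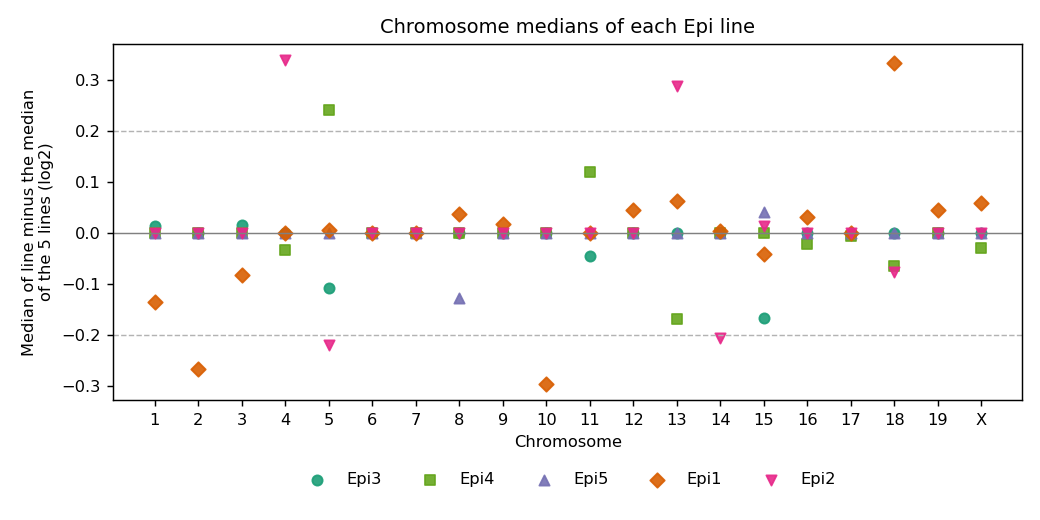
Median over a chromosome's kept genes of each Epi line's log2 value minus the median of the 5 lines (vertical axis), for 20 chromosomes (horizontal axis), 1 marker per line, with dashed lines at 0.2 on either side of 0. Epi1 lies apart on chromosomes 2, 10 and 18, Epi2 on chromosomes 4, 5, 13 and 14, and Epi4 on chromosome 5.

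Variable genes were spread over the genome. Their share of a chromosome's kept genes ran between 2.55% on chromosome 17 and 7.31% on chromosome 15, with 7.26% on chromosome 14, 7.04% on chromosome 13 and 6.92% on chromosome 1. On the 7 shifted chromosomes 5.36% of kept genes were variable, and on the others 4.79%. Single genes with large gaps on shifted chromosomes included Gja1 on chromosome 10, the gap junction protein connexin 43, with 5.23 in Epi1 and 8.50 to 8.96 in the other lines. Tnfaip6 on chromosome 2, a hyaluronan-binding protein, read 4.24 in Epi1 and 7.01 to 8.02 elsewhere. Tubb2b on chromosome 13, a beta-tubulin, read 10.37 in Epi2 and 3.55 to 8.11 elsewhere. Bmp1 on chromosome 14, the procollagen C-proteinase, read 10.99 in Epi2 and 12.93 to 13.56 elsewhere. Trim54 on chromosome 5, a muscle ubiquitin ligase, read 10.57 in Epi4 and 6.05 to 8.16 elsewhere. These genes were named for their large gaps, so gaps above the shift of their chromosome follow from that choice.

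The Epi clones' spread can be set beside that of the Mes clones. Over 12177 kept genes above background on all 10 arrays, the median SD was 0.28 over the Epi lines and 0.30 over the Mes lines. An SD of at least 1 was found in 454 of them over the Epi lines (3.73%) and in 630 over the Mes lines (5.17%). The lists shared 223 genes, 49.1% of the Epi list and 35.4% of the Mes list, and the difference between the groups was not tested. Dkk3 had an SD of 4.14 over the Epi lines and 1.16 over the Mes lines. Adgrl1 had an SD of 2.03 over the Epi lines and 0.28 over the Mes lines. Cxcl5 had an SD of 2.32 over the Epi lines and 5.17 over the Mes lines. Its lowest Mes value was 0.73, against a Mes median of 8.60, so its Mes SD rests partly on a very dim reading.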

How the data were processed

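Total RNA was labelled with Cy3 and hybridised to 1-colour Agilent mouse arrays, 1 per line. The authors extracted the spot intensity values with Feature Extraction 10.7 and deposited them, per the file headers. Per the series' design text, the authors then normalized by quantiles in GeneSpring 11.0, and the deposited log2 values were used unchanged. Background calls came from the scanner files (a probe passed where at least 0.5 of its unflagged spots did), and each deposited column correlated at 0.9997 or more with its own Epi scanner array. Gene symbols were updated through RefSeq (GRCm38.p6) for 33405 of 34893 named probes; 6281 probes had no name. Spread is the SD over the 5 Epi log2 values. Named genes were the 20 of largest SD, the 4 farthest out on each side of each line, the trio's 6 on each side, up to 4 members per list, and the largest gaps on shifted chromosomes; a few of these are not reported here. The lines, gene lists and rules were chosen with earlier results of these data known. With 1 array per line there is no test, and the number of arrays limits the precision. Scripts used Python 3.11.15, pandas 2.3.3, R 4.3.3 and limma 3.58.1 and were tested on simulated data. Scanner quantile, 75th percentile and normexp scaling, the filter, the probe rule and each line left out were alternatives.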

Additional observations from a re-analysis of the deposited data

Results flagged for a closer look

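In some named genes and chromosome medians 1 line lay far from the other 4, measured as its gap to the nearest line divided by the whole range, where a ratio above 0.71 is marked for 5 samples. Chance marks about 1 in 20 such groups, and most of these genes were named for their gaps, so the ratios describe and support nothing. In Epi1 the ratio was 0.923 for Plin2, 0.879 for Dkk3, 0.878 for Gja1, 0.848 for Aga, 0.845 for Bgn, 0.771 for Gulp1, 0.762 for Col6a3, 0.732 for Tnfaip6, 0.73 for Col6a2 and 0.712 for Mapt. In Epi2 it was 0.939 for Lrrc15, 0.852 for Ifi209, 0.782 for Adgrl1 and 0.756 for Bmp1. In Epi3 it was 0.729 for Tnfaip2 and 0.72 for Hspb1. In Epi4 it was 0.843 for Tbxas1, 0.815 for Lims2 and 0.775 for Crmp1. Among chromosome medians, Epi1 had a ratio of 1 on both chromosome 10 and chromosome 2 and 0.815 on chromosome 18, and Epi2 had 0.979 on chromosome 14 and 0.91 on chromosome 4. The medians of the other lines on these chromosomes lie near 0 partly by construction, because each gene is centred on its middle line.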

How the results depend on the processing

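All results rest on 1 array per line, so precision is limited by the number of arrays, and genes near background are compressed. All 62 summary results stayed within 1.5 times (chromosome shifts within 1 SD over lines) in some settings. These were scanner values with quantile normalization, 75th percentile scaling, the series matrix table and the mean over probes. No setting reversed a chromosome shift, and the other results have no sign that could reverse. Of 234 named gene SDs, 98 moved by over 1.5 times under normexp, 54 without Epi2, 47 without Epi1, 24 without Epi4, 12 without Epi3, 8 without Epi5, 6 under the mean over probes and 1 under 75th percentile scaling, as did 2 of 189 with probes above background on all 10 arrays. With normexp and its offset of 50, the 631 variable genes became 244. Epi1 was then above in 97 and below in 85 genes, Epi2 in 71 and 80, Epi3 in 19 and 18, Epi4 in 31 and 21, Epi5 in 12 and 9, and the trio in 46 and 28. Median SDs were then 0.44 for keratins, 0.29 for tuft cell, 0.30 for Notch, 0.45 for axon guidance, 0.14 for imprinted and 0.099 for leukocyte genes. With no filter on dim probes 1846 genes were variable. Epi1 was above in 594 and below in 367, Epi2 in 434 and 350, Epi3 in 289 and 179, Epi4 in 343 and 165, Epi5 in 190 and 121, and the trio in 167 and 152. Chromosome shifts were then -0.070 (chromosome 10) and -0.024 (chromosome 2) in Epi1, and 0.092 (chromosome 13) and -0.071 (chromosome 14) in Epi2, and median SDs were 0.52 for imprinted and 0.59 for erythroid and muscle genes. With probes above background on at least 1 Epi array, 1768 genes were variable. Epi1 was above in 426 and below in 347, Epi2 in 335 and 317, Epi3 in 160 and 151, Epi4 in 194 and 126, Epi5 in 71 and 105, and the trio in 151 and 115, with median SDs of 1.38 for cytokines and 1.18 for Wnt genes. With probes above background on all 10 arrays, Epi4 was above in 37 genes, Epi5 below in 23, and the keratin median was 0.38.

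Leaving out each line in turn gave between 571 and 723 variable genes. The counts above and below ran between 219 and 293 and between 224 and 328 for Epi1, 190 and 267 and 232 and 352 for Epi2, 51 and 73 and 87 and 106 for Epi3, 91 and 120 and 74 and 82 for Epi4, 40 and 77 and 50 and 75 for Epi5, and 115 and 352 and 81 and 293 for the trio; with fewer lines to clear, such counts can only grow over the same genes. Median SDs ran between 0.13 and 0.33 for Hox, 0.21 and 0.40 for Myc, Rb and p53, 0.40 and 1.10 for keratin, 0.22 and 0.53 for leukocyte and 0.27 and 0.46 for neuroendocrine genes. Subtracting the mean of the other 4 lines, an alternative chosen after seeing the data, kept all 8 chromosome shifts in direction. No paired analysis was possible because the results come from no test and only 1 group is described.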

Other observations

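Some members of gene lists not described above also varied, where 4.99% of all kept genes were variable. Among cancer germline genes, of which 3 were kept and 2 variable, Rhox5, an X-linked homeobox gene, read 10.57 in Epi1 and 5.25 to 7.36 in the other lines, and Xlr, another X-linked gene, read 7.66 in Epi1 and 3.57 to 5.22 elsewhere. Of 24 kept glutathione and NRF2 target genes 3 were variable, led by Gsta1, a glutathione transferase, with 6.74, 10.03 and 6.87 in Epi3, Epi4 and Epi5, against 4.18 in Epi1 and 8.62 in Epi2. Hopx, a homeobox gene of alveolar type I cells, read 8.53, 10.57 and 11.47 in the trio, against 6.36 in Epi1 and 8.96 in Epi2, and was the 1 variable gene among 9 kept lung epithelial genes. Ptgs1, a prostaglandin synthase also listed among tuft cell genes, read 6.79, 11.53 and 10.95 in the trio, against 8.33 in Epi1 and 9.73 in Epi2, while the tuft cell factor Pou2f3 was above background in no line.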
